A study of Drosophila melanogaster with 2 samples.

Results

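The 5 genes described here, *ap* (apterous), *Lim1*, *Lim3*, *tup* (tailup, the fly Islet gene) and *Awh* (Arrowhead), encode LIM-homeodomain transcription factors. They were listed by name, out of 13945 annotated protein-coding genes on the chromosome arms analysed, and the rule that chose them uses no measured value, although earlier results of these data were known when the list was made. For each gene, every peak of the GFP-tagged Bsh protein whose summit lay in the annotated gene span, or within 10 kb on either side of it, was taken. Chromatin immunoprecipitation with sequencing (ChIP-seq) was carried out with an anti-GFP antibody on chromatin of whole *Drosophila melanogaster* embryos, 10 to 12 h old. The labels disagree on both points: the age follows their source name, since the age field holds a value that no embryo can have, and the antibody follows their description, since the antibody field names bsh. The embryos came from a stable transgenic line in which GFP is fused to the C-terminus of Bsh. There was 1 group with 2 biological replicates, and no group of other embryos was analysed here. The measurements therefore describe where tagged Bsh was recovered along these genes, averaged over all cells of the embryo, and not what Bsh did to their transcription.

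LIM-homeodomain proteins carry a pair of LIM domains, which bind cofactors, and a homeodomain, which binds AT-rich DNA, typically around a TAAT core. In the fly nerve cord they act in combinations that give motor neurons and interneurons their identity: Lim3 and Tup take part in setting the axon paths of ventral motor neurons, and Ap marks a set of interneurons and neuropeptidergic cells. Lim1 and Awh are known from imaginal tissues as well as from neurons. Bsh (brain-specific homeobox) is itself a homeodomain protein of the nervous system, and in the lamina of the later optic lobe it acts upstream of *ap* in a class of lamina neurons. Whole embryos of this age are another tissue and stage.

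The DNA under the strongest Bsh-GFP summits near *Lim1*, *Lim3*, *tup* and *Awh* is shown first, with 2 further *Awh* summits that differ most in their TAAT content. Each line gives 101 bases of the plus strand centred on a summit, from the RefSeq genome of release 6 (dm6). The capitals mark TAAT or its reverse complement ATTA.
Lim1 intron, chrX:8774206-8774306: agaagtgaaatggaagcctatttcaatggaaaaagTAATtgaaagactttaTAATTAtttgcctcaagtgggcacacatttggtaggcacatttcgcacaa
Lim1 intron, chrX:8777261-8777361: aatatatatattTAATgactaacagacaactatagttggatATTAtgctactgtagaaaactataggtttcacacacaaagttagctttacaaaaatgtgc
Lim3 intron, chr2L:19091444-19091544: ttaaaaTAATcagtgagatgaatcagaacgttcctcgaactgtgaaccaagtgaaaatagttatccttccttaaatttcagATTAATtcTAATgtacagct
tup downstream, CG10602 promoter, chr2L:18857745-18857845: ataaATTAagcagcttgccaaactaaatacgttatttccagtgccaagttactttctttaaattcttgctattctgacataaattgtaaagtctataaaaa
tup upstream, chr2L:18890213-18890313: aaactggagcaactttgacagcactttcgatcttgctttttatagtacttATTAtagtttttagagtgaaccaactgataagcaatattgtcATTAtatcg
Awh downstream, chr3L:3862593-3862693: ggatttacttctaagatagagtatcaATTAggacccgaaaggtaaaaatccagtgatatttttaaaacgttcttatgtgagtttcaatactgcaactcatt
Awh intron, chr3L:3852981-3853081: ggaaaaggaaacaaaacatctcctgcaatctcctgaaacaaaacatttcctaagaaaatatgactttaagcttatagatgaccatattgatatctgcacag
Awh downstream, chr3L:3863643-3863743: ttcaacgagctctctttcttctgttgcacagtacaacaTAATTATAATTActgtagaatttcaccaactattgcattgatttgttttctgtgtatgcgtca
Of these summits, the *Awh* intron summit had no TAAT within 50 bp, whereas the *Awh* summit 1050 bp downstream of the strongest one had 4 TAAT words, in 2 adjacent copies of TAATTA.

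Bsh-GFP peaks of the IDR set, the 7927 peaks that the authors kept after comparing replicates by irreproducible discovery rate, lay near 4 of the 5 genes. *Lim1* and *Awh* had 7 summits each, *tup* had 4, *Lim3* had 3 and *ap* had 0, which makes 21 in all. By the same rule, 70.5% of all protein-coding genes had at least 1 IDR summit, so a summit somewhere in this wide window does not set these genes apart. Within the gene span alone 4 of the 5 had one, against 15.6% of protein-coding genes. With 2 kb either side it was also 4 of the 5, against 41.8%. A longer span has more room for a summit, and these shares were not matched for gene length. The 4 lists were also unequal in length: the pooled list and both replicate lists hold 30000 peaks each, a set limit, and the IDR set is the same as the top 7927 pooled peaks by signal value. Of the pooled summits, all 5 genes had some, 96 in all, against 81.3% of protein-coding genes with at least 1. There were 30 at *Lim1*, 20 at *Awh*, 19 each at *Lim3* and *tup* and 8 at *ap*.

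**Figure D1:**
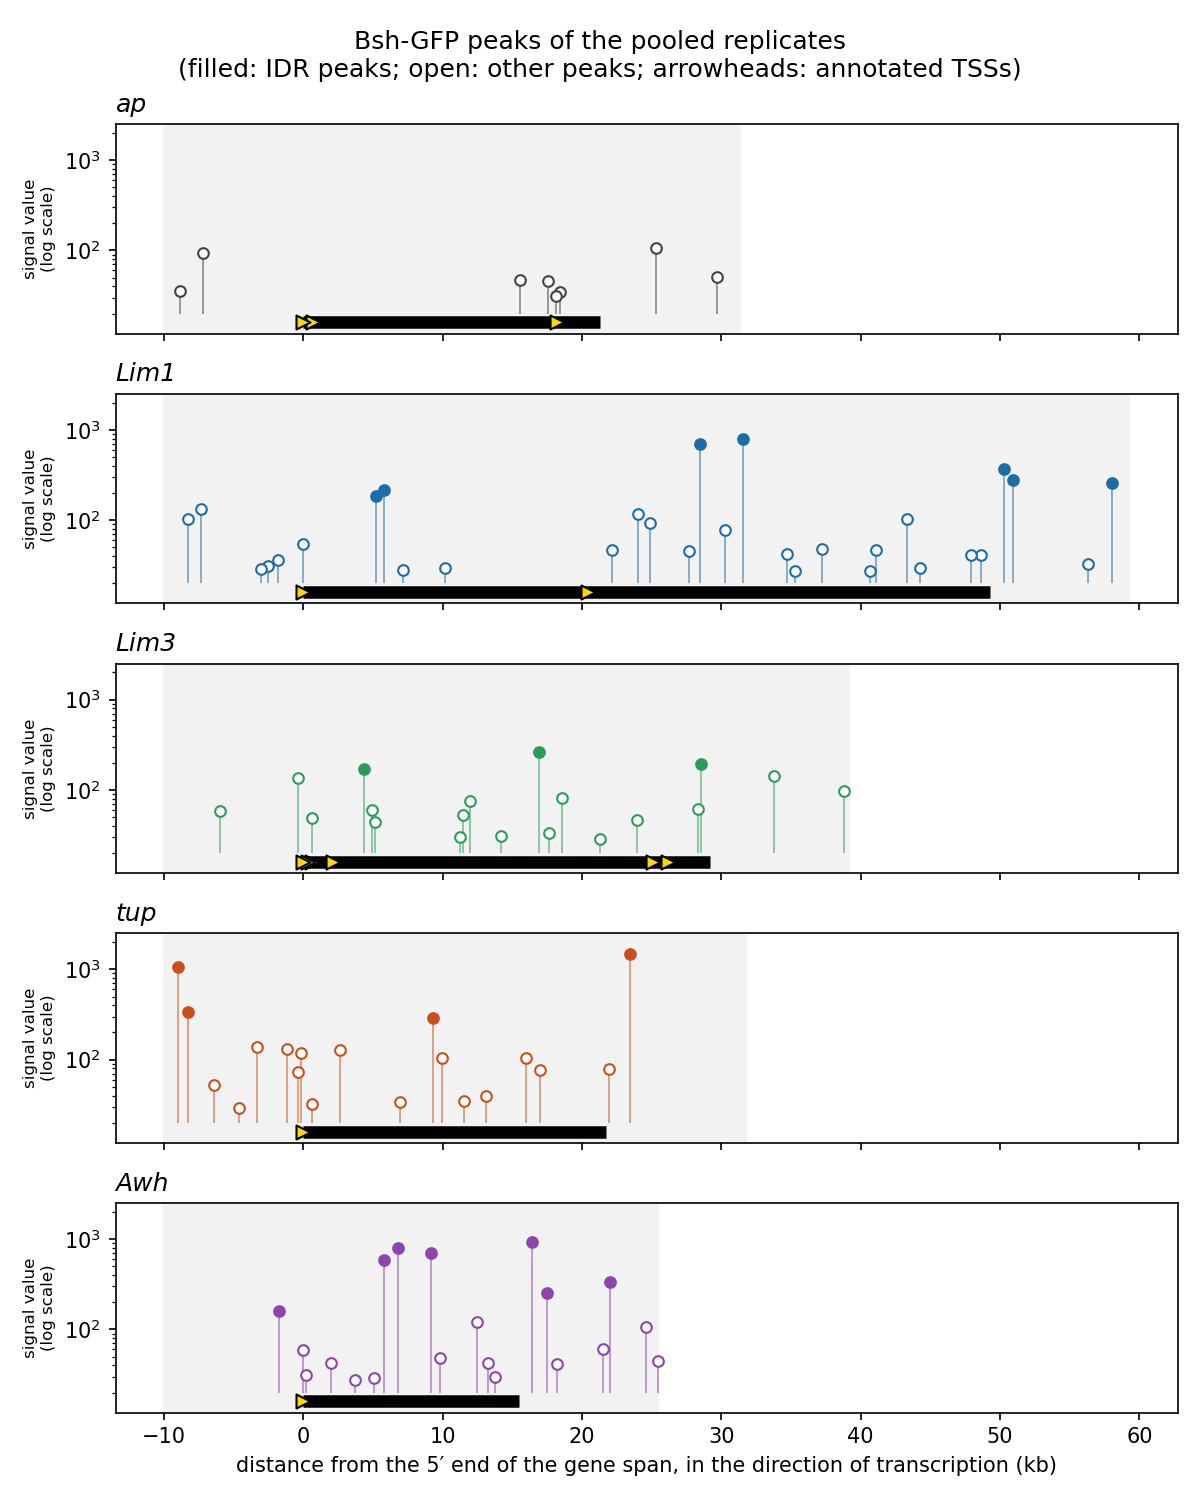
Pooled Bsh-GFP peaks at the 5 genes: the x axis gives the distance of the summit from the 5′ end of the gene span in kb, in the direction of transcription, and the y axis the signal value of the peak on a log scale. Black bars are gene spans, arrowheads annotated transcription start sites, grey the window searched, filled points the 21 IDR peaks and open points the other 75; of the filled points 10 lie in introns, 1 in the *Lim3* 3′ UTR and 10 outside the spans, and the points within 500 bp of an arrowhead are open.

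The windows differ in length, from 35487 bp at *Awh* to 69266 bp at *Lim1*, so the counts were also set per 10 kb. IDR density was 1.97 summits per 10 kb at *Awh*, 1.01 at *Lim1*, 0.958 at *tup*, 0.610 at *Lim3* and 0 at *ap*. Over the 5 windows together it was 0.886, against 0.592 over the chromosome arms and a median of 0.482 over the windows of all protein-coding genes. *Awh* was the densest of the 5, and 6.60% of protein-coding windows were at least as dense. For *Lim1* that share was 28.2%, for *tup* 30.9% and for *Lim3* 46.8%, so these 3 genes were not unusual among protein-coding genes. In the pooled list the 5 windows held 4.05 summits per 10 kb, against 2.24 over the arms and a median of 2.30 over protein-coding windows, and *ap* was again the lowest, at 1.94.

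**Figure D2:**
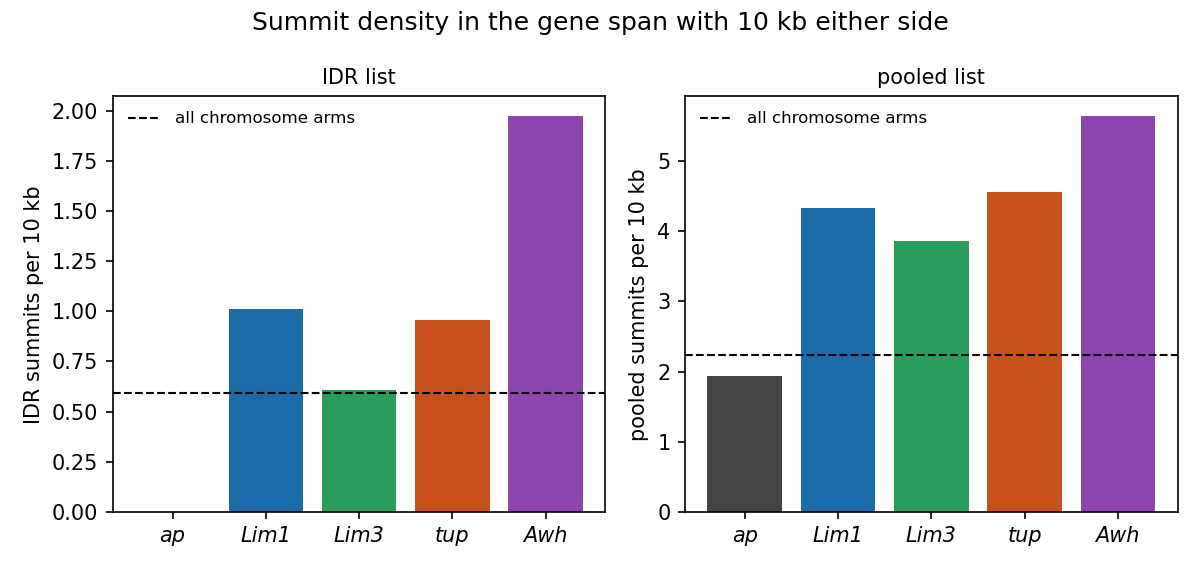
Summits per 10 kb in the window of each gene, for the IDR list (left) and the pooled list (right), with the density over all chromosome arms as a dashed line. The *Awh* bar is the highest in both panels, at 1.97 and 5.64 summits per 10 kb, and *ap* has no IDR summit.

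*Awh* (FBgn0013751), which lies on chromosome 3L at 3846206 to 3861692 on the plus strand and has 1 annotated start site, is needed in abdominal histoblasts and salivary imaginal cells. Its 7 IDR summits fell into 3 groups: 1 just upstream of the gene, 3 in introns and 3 downstream of it. The signal value, a score from the authors' peak caller, is on a different scale in each list, so the pooled value is given with the rank of the peak in each list, where rank 1 is the strongest. The intronic summits at 3852023, 3853031 and 3855383 had pooled signal values of 582, 798 and 703. The first of these ranked 1955 in replicate 1 and 1756 in replicate 2. The second ranked 1073 and 1387, and the third 1561 and 1359. All 3 thus ranked between 1073 and 1955 of the 30000 peaks in each replicate list. They lay 5817 to 9177 bp downstream of the start site, with gaps of 1008 and 2352 bp between neighbours.

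The strongest *Awh* peak lay beyond the 3′ end, at 3862643, with a signal value of 937 and ranks of 952 in replicate 1 and 874 in replicate 2. It was 16437 bp from the *Awh* start site and 1781 bp from that of the long noncoding RNA lncRNA:CR45379. The next summit downstream, at 3863693, had a signal value of 253 and ranks of 6116 and 4296, and that at 3868250 had 335 with ranks of 3262 and 4271. These 2 were the weaker ones on that side in both replicates, and the nearest protein-coding start site was still that of *Awh*. The start site of lncRNA:CR45379 was nearer to both, at 731 and 3826 bp. The summit upstream of *Awh*, at 3844477, was the weakest of the 21 IDR peaks, with a signal value of 161 and ranks of 7339 and 8607. At 1729 bp it was also the closest to a start site of its own gene. Replicate 2 held a further peak of rank 6449 in this window that overlapped no pooled peak, so at least 1 fairly strong peak was seen in 1 replicate alone.

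*Lim1* (FBgn0026411) occupies X at 8756539 to 8805804 on the minus strand, with 2 start sites, and encodes the fly member of the group that vertebrates call Lhx1 and Lhx5. Its 2 strongest peaks were a pair in the intron sequence between the inner start site and the 3′ end. At 8774256 the signal value was 801, with ranks of 1229 in replicate 1 and 1158 in replicate 2, and at 8777311 it was 691, with ranks of 1446 and 1491. The positions of this pair in both replicate lists were therefore close to equal. They lay 11097 and 8042 bp downstream of the inner start site, and 3055 bp from each other.

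The other 5 *Lim1* summits were weaker. Those at 8799980 and 8800571, 591 bp apart in intron sequence just inside the outer start site, had signal values of 213 and 187. The first ranked 7670 and 4679 in replicates 1 and 2, and the second 7269 and 5865, so both were higher in the list of replicate 2. Beyond the 3′ end, the summits at 8754892 and 8755542 were 650 bp apart, with signal values of 279 and 372. Their ranks were 3966 and 5656 for the first, and 3392 and 3112 for the second. The last summit, at 8747802, had a signal value of 255 and ranks of 4904 and 4634. It lay 37551 bp from the nearest *Lim1* start site, the farthest of the 21, and its nearest protein-coding start site was that of CG1789. No other annotated protein-coding gene overlapped the *Lim1* window.

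*tup* (FBgn0003896), at 18859507 to 18881261 on the minus strand of 2L with 1 start site, had the strongest peak of the 5 windows. This peak, at 18857795, had a signal value of 1462, which put it at rank 413 of the pooled list, 456 of replicate 1 and 380 of replicate 2. It was the only IDR summit of the 21 in a promoter, defined as within 500 bp of any annotated start site, and that promoter belongs to the neighbouring gene CG10602, 116 bp away. The *tup* start site was 23466 bp from it.

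Upstream of *tup*, 2 summits lay 707 bp apart between genes. The stronger, at 18890263, had a signal value of 1054, with ranks of 770 in replicate 1 and 751 in replicate 2. It was 9002 bp from the *tup* start site and 3348 bp from that of the long noncoding RNA lncRNA:CR44737. The weaker, at 18889556, had a signal value of 334 and ranks of 3219 and 4756. It was 8295 bp from the *tup* start site and 4055 bp from that of lncRNA:CR44737. The single IDR summit inside *tup*, in an intron at 18871978, had 290 with ranks of 3899 and 5103. Thus the 2 strong peaks of this window both lay outside the gene, 1 on each side. The 10 kb limit cuts through a run of peaks here: 4 more IDR summits lay 13902 to 18805 bp upstream of *tup*, with *tup* as the nearest protein-coding gene. The strongest of these, at 18899455, had a signal value of 1390, and the one at 18900066 had 770. The latter was in a promoter, of a gene that is not protein-coding, and the one at 18895163 was classed as intronic. With the limit at 20 kb, *tup* would have 9 IDR summits. The limit cuts off peaks at other genes too: at 20 kb *Awh* would have 10 in place of 7 and *Lim3* 5 in place of 3. *Lim1* would stay at 7. The summits so added at *Awh* had signal values from 552 to 805.

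*Lim3* (FBgn0002023), at 19079256 to 19108427 on the minus strand of 2L with 6 start sites, had 3 IDR summits, all inside its span and all weak. The strongest, at 19091494 in an intron, had a signal value of 264 and ranks of 4862 in replicate 1 and 4690 in replicate 2. The summit at 19079913 had 196, with ranks of 7161 and 5320, and was the only one of the 21 classed as exonic, in the *Lim3* 3′ UTR. It lay 885 bp from the start site of the neighbouring gene CG10700. The third, at 19104103, had 169, with ranks of 6465 and 8477, in an intron, 2059 bp from the start site of CG17344, a gene nested in *Lim3*. The *Lim3* window is crowded, with 9 other protein-coding genes, against 3 at *tup*, 2 at *ap*, 1 at *Awh* and 0 at *Lim1*. None of the 3 *Lim3* peaks belonged to the stronger part of the IDR set, where 11 of the 21 stood among the strongest 3963.

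*ap* (FBgn0267978) spans 5706202 to 5727525 on the minus strand of 2R, with 3 start sites, and had no IDR summit. Its 8 pooled summits ranked between 10542 and 27008, and the highest signal value among them was 107, against a lowest value of 151 in the IDR set. The strongest was in the promoter of a neighbour, *vlc*, 134 bp from its start site, at 5702246, with ranks of 12159 in replicate 1 and 10640 in replicate 2. The second, at 5734727 upstream of the gene, had 93.0 and ranks of 19553 and 10169. At the inner *ap* start site 2 pooled summits lay 197 and 72 bp away, with signal values of 34.4 and 31.1, both overlapping the same replicate peaks of ranks 23915 and 26115. An intronic summit at 5709982 overlapped a peak of replicate 1 only and another at 5712007 a peak of replicate 2 only. No pooled summit fell within 500 bp of the outer *ap* start sites. Thus peaks were listed at *ap*, but none was strong in either replicate, where the best ranks were 12159 and 10169. With the limit at 20 kb, 1 IDR summit came in, at 5690055 with a signal value of 218, 1151 bp from the start site of *scaf*.

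None of the 5 genes had an IDR summit within 500 bp of a start site of its own (background, 23.5% of protein-coding genes). In the pooled list, 5 of 5 had one (background, 46.4%). So did 5 of 5 in each replicate list, for which no background share was computed. A gene with more start sites has more places for such a summit, and the 5 genes have from 1 to 6 start sites. The 9 pooled summits within 500 bp of an own start site were low in the list, with ranks from 8763 to 27008 and a median of 17486. The highest, 373 bp upstream of *Lim3*, had a signal value of 135. It lay 15 bp from the start site of lncRNA:CR44905, ranking 8135 in replicate 1 and 9733 in replicate 2. At *tup*, 2 summits 141 and 341 bp upstream had values of 119 and 73.2. Both overlapped the peaks of rank 12492 in replicate 1 and 9101 in replicate 2. Each replicate also listed a second peak there, of ranks 12638 and 19584. The second *Lim3* summit, 44 bp from another of its start sites, had 49.4 and overlapped a peak of rank 15913 in replicate 1 and none in replicate 2. At *Awh*, summits 15 bp upstream and 196 bp downstream had 59.7 and 31.5, and shared the replicate peaks of ranks 24339 and 14677. At *Awh* and *ap*, 2 pooled summits thus share the 1 peak that each replicate listed at the start site. At *Lim1*, the summit 33 bp upstream of the outer start site had 54.6, with ranks of 19505 and 23561. Bsh-GFP peaks at the genes' own promoters were thus present in both replicates at all 5 genes, each with a lower signal value than any of the 21 IDR peaks, as the composition of the IDR set requires.

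The 21 IDR summits lay between 1729 and 37551 bp from the nearest start site of their gene, with a median of 9002 bp. The median distance to the nearest protein-coding start site of any gene was 8295 bp for the 21 summits and 1672 bp for all IDR summits. For 17 of the 21, that nearest start site was the one of the LIM-homeodomain gene itself, and the same held for 72 of the 96 pooled summits. Summits were taken for lying near these genes, and the same share over the windows of other genes is not given here. These counts therefore do not assign the peaks to the genes. By location, 10 of the 21 (47.6%, exact 95% interval 25.7 to 70.2) were in introns, against 42.3% of all IDR summits. A further 9 (42.9%, 21.8 to 66.0) were intergenic, against 18.6%. Only 1 (4.76%, 0.120 to 23.8) was in a promoter, against 36.1%. The windows hold from 0 other protein-coding genes, at *Lim1*, to 9, at *Lim3*. Neither the promoter share nor the distances were set against the number of start sites in the windows, so the part played by gene layout was not tested. The intervals cover counting error only and treat summits as independent, and summits near 1 gene are not. Among pooled summits, 51 of 96 were in introns (53.1%, against 43.9% of all pooled summits), 24 were intergenic (a share of 1 in 4, against 21.1%), 17 were in promoters (17.7%, against 28.1%) and 4 were in 3′ UTRs.

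**Figure D3:**
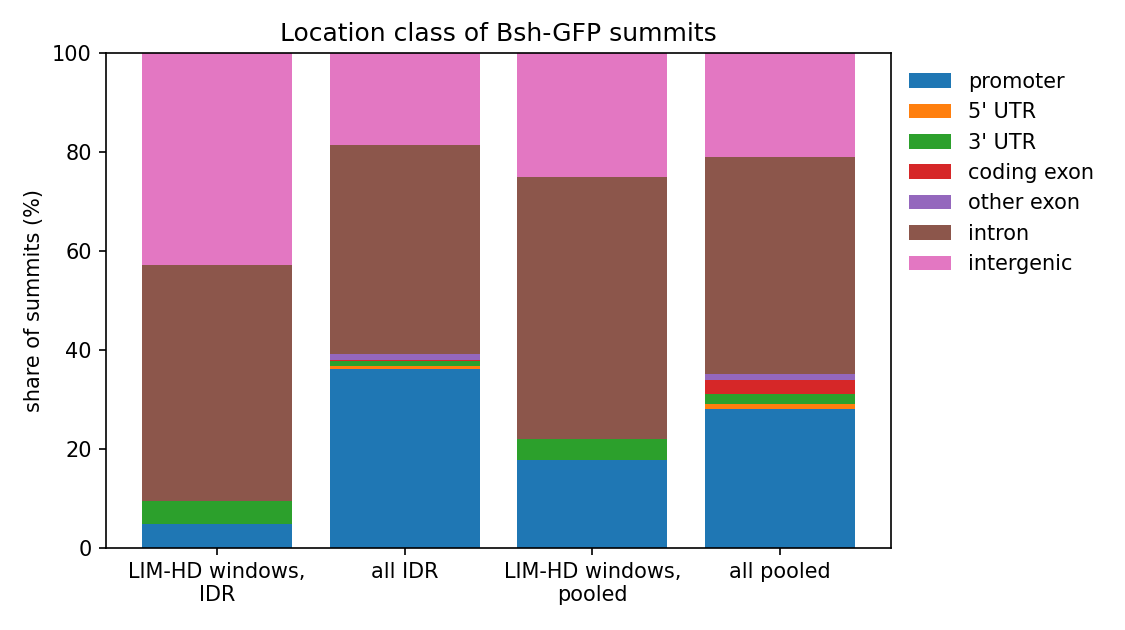
Share of summits in each location class, in percent, for the LIM-homeodomain windows (LIM-HD) and for all peaks, in the IDR list (21 and 7927 summits) and the pooled list (96 and 30000 summits). The promoter share is 4.76% in the windows and 36.1% overall in the IDR list, and 17.7% and 28.1% in the pooled list.

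All 21 IDR peaks overlapped a peak in both replicates, as did 99.3% of all IDR peaks. The larger rank of a peak was at most 1.64 times the smaller one, with a median ratio of 1.20, against 1.19 over all IDR peaks, and the order of the 21 was similar in both replicates (Spearman's rho 0.870 over the 21 peaks, which share a control). Of the 75 pooled peaks outside the IDR set, 44 had a peak in both replicates (58.7%, against 63.7% of all such pooled peaks), 15 in replicate 1 only, 14 in replicate 2 only and 2 in neither. Over those 44 the ranks varied more, with a rho of 0.691 and a ratio up to 1.99. The IDR set was kept after comparing replicates, so this difference is not an independent finding. Some of the 44 also take the same replicate peaks as another pooled peak, so their ranks are not all separate. Of the 75 weaker peaks, 72 were listed with a fixed width of 376 bp and the summit in the middle, and 0 of the 21 IDR peaks were. The positions of those 72 may be coarser, which was not tested. All 9 peaks at the genes' own promoters were of that fixed width.

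**Figure D4:**
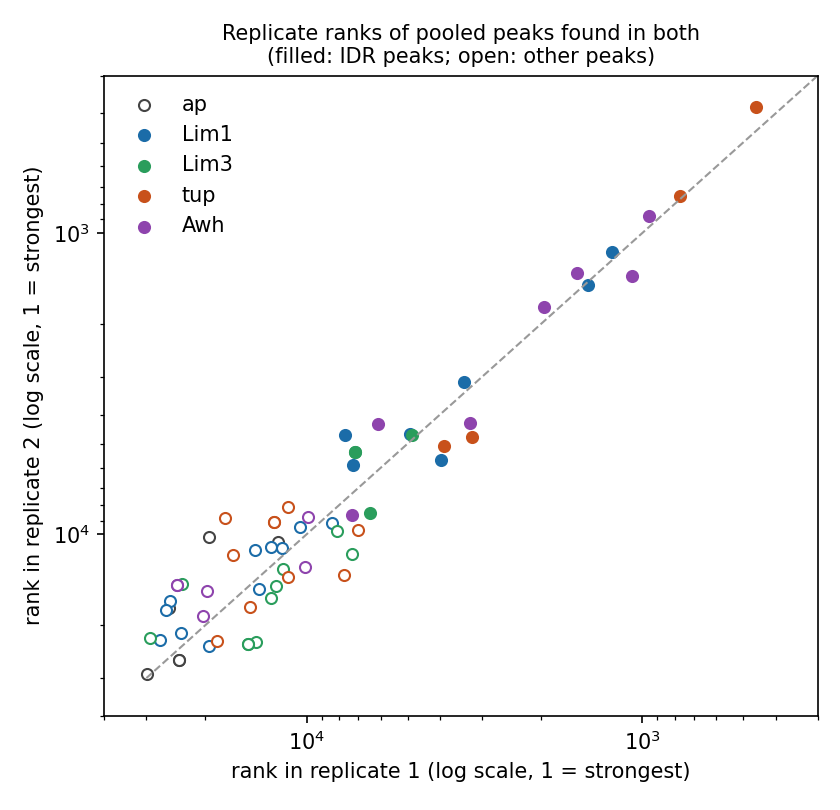
Rank of each pooled peak in replicate 1 (x axis) and replicate 2 (y axis), both log scales with the strongest at the upper right, for peaks found in both replicates, coloured by gene and filled for the IDR set. The 21 IDR peaks lie along the dashed line of equal ranks, and the other 44 lie mostly at lower ranks and scatter more widely. Each point takes the strongest overlapping peak of each replicate. An open *Lim3* point therefore takes the ranks of an IDR peak and is hidden under it, although replicate 1 also listed a peak of rank 13523 there.

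The peaks were of ordinary strength for the IDR set. Their median signal value was 334 and their range 161 to 1462, against a median of 312 and a range of 151 to 8178 over all IDR peaks. Of the 21, 3 were among the strongest 1000 IDR peaks: the *tup* peaks at 18857795 and 18890263 and the *Awh* peak at 3862643. The widths ran from 126 to 522 bp, with a median of 247 bp, against 283 bp over all IDR peaks. Some summits were paired: 6 of the 21 (28.6%) had another IDR summit within 1 kb, against 21.2% of all IDR summits, namely the 2 close pairs at *Lim1* and the pair upstream of *tup*. The median gap to the nearest IDR summit was 2352 bp, against 2543 bp overall.

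The words searched within 50 bp of a summit, on both strands, were TAAT (the homeodomain core), TAATTA and CAATTA (longer homeodomain words), GAGAG (bound by GAGA factor), CANNTG (the E-box of helix-loop-helix factors) and TATCGATA (bound by DREF). TAATTA and CAATTA each contain TAAT or its reverse complement. TAAT was found at 18 of the 21 IDR summits (85.7%, exact 95% interval 63.7 to 97.0), against 80.2% of all IDR summit windows, and GC content averaged 29.4%, against 31.8%. TAATTA was found at 2 summits (9.52%, against 11.0%), namely the strongest *Lim1* summit and the *Awh* summit at 3863693 printed above. CAATTA was found at 4 (19.0%, against 10.9%), 3 at *Lim1* and 1 at *Awh*. CANNTG was found at 4 (19.0%, against 33.4%), GAGAG at 1 (4.76%, against 8.55%) and TATCGATA at 0 (against 0.946%). The 3 summits with no TAAT were the *Lim3* 3′ UTR summit, where GC content was 53.5%, and the *Awh* summits at 3853031 and 3868250. Each interval on these shares included the share over all IDR summits, so at 21 summits no word was shown to be more or less frequent at these genes.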

How the data were processed

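Peak lists from ChIP-seq of 2 biological replicates of 1 group were used, on assembly dm6 per the labels. Per the deposited notes, single-replicate and pooled alignments each went through peak calling against the same control, and the 3 resulting lists gave the IDR set. For the aligner, peak caller and IDR cutoff, the sources used here give no names or values. The signal value is a deposited score, which the authors' software assigned to each peak, and ranks were taken from it. The deposited −log10 of the q-value was not used. The summit offset deposited by the authors placed each peak. The depth per sample is unknown, and the control was not analysed here. Gene models were from Ensembl release 115 without transposable elements. Each summit took the first class that held of promoter (within 500 bp of any start site), UTR (5′ before 3′), exon (coding before other) and intron, and was otherwise intergenic. Peaks were matched by an overlap of at least 1 bp, and the strongest overlapping replicate peak gave the rank. No test was run: all results are descriptions, and shares carry exact Clopper-Pearson intervals. The genes and lists were chosen with earlier results of these data known. All 5 genes were named with every IDR peak, for the weaker lists the strongest peaks, those at the genes' own start sites and ranges, and for related genes every count with the 4 strongest peaks. Pooled peaks of *ap*, and measures of spacing and of distance from an own start site, were added after seeing the data. The alternatives were other window sizes, stricter lists, other points placing a peak, single replicates, promoter distances, overlaps and motif widths. The counting steps were tested on simulated data. Python 3.11.15, numpy 2.4.6, pandas 2.3.3, scipy 1.17.1 and matplotlib 3.10.9 were used.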

Additional observations from a re-analysis of the deposited data

How the results depend on the processing

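The 21 IDR summits became 11 within the gene spans alone and 32 with 20 kb either side, and the 96 pooled summits 59 within the spans. Among the strongest 1000 IDR peaks 3 summits at 2 genes were left, and among the stronger 3963 there were 11. TAAT was found at 52.4% of summits within 25 bp. In a check chosen after seeing the data, 1 IDR summit lay within 2000 bp of an own start site, at *Awh*, and 0 within 1000 bp. Leaving out either replicate, with as many peaks as the IDR set, gave 20 to 24 summits at 4 genes, 89 to 93 in the full lists and 0 near an own start site. Shares of protein-coding genes are not given for the stricter lists, single replicates or other distances from an own start site. Those counts therefore have no background here. The promoter share, 4.76%, was 14.3% with promoters of 1000 bp, and GAGAG, at 4.76% of summits, was at 23.8% within 100 bp. A wider setting can only raise a share. The shares over all IDR summits given above are for the main settings, so they cannot be set against these values or against TAAT within 25 bp. Of 40 such recomputed values 32 stayed within 1.5 times for counts or the 95% counting interval for shares, and of 60 for single genes or words 44 did. No paired analysis was possible because there was 1 group. The peak lists carry no read counts, so depth sets an unknown limit on weak peaks such as those at *ap*.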

Other observations

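Genes that act with LIM-homeodomain proteins were counted by the same rule. Of 5 genes of the LIM complex and close relatives, 4 had an IDR summit (70.5% of protein-coding genes did). *Bx*, which encodes a LIM-only protein that competes for the cofactor Chip, had 11 summits, 1 of them within 500 bp of its own start site (23.5% of protein-coding genes had one), and *Ssdp*, a partner of Chip, had 4. *Lmx1a* and CG4328, relatives of vertebrate Lmx1, had 1 each, and *Chi*, which encodes Chip itself, had 0. *Chi* and *ap* were thus both without an IDR summit, with 7 and 8 pooled summits.

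Of 16 other regulators of neuronal identity, 11 had an IDR summit (against 70.5% of protein-coding genes). There were 10 at *zfh1*, 7 at *dac*, 6 at *exex* (the fly HB9 gene of motor neurons), 4 each at *sqz*, *kn* and CG34367, 3 at *vvl*, 2 each at *vnd*, *unpg* and *otp*, 1 at *HGTX*, and 0 at *eve*, *dimm*, *eya*, *ind* and *hbn*. A summit within 500 bp of an own start site was found at 2 of the 16, *vvl* and *vnd* (against 23.5%). The strongest peaks were at *dac* (signal value 1721, nearest start site that of *Tpr2* at 1393 bp), *zfh1* (1638, in an intron, 1488 bp from its own start site), *otp* (1584, in a coding exon, nearest start site that of *Cib2* at 4657 bp) and *sqz* (1043, in the promoter of CG42359, 83 bp away). For *dac*, *otp* and *sqz* the nearest start site thus belonged to another gene, as it did for the strongest *tup* peak.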
